A study of Mus musculus with 4 samples.

Results

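The cells described are 145 cycling and committed myoblasts from dystrophic mouse muscle, of 15736 droplet barcodes that passed the filters in the mdx5cv libraries and 28163 in all 4 libraries. A barcode marks the transcripts of 1 droplet, usually 1 cell, and a UMI (unique molecular identifier) marks 1 captured transcript molecule. The cells were chosen by their transcripts. A barcode needed at least 1000 UMIs, at least 500 genes and at most 15% mitochondrial UMIs, at least 3 UMIs over the muscle lineage genes Pax7, Myod1, Myf5, Cdh15, Des and Chodl, and at most 1 UMI over Ptprc, Csf1r, Cdh5 and Pdgfra, which mark leukocytes, macrophages, endothelium and fibro/adipogenic progenitors. It was called committed with at least 1 UMI over Myog, Mymk and Mymx and cycling with at least 2 UMIs over Top2a, Mki67 and Birc5. Of the 145, 79 were committed, 45 were cycling and 21 met both rules. The mdx5cv quadriceps gave 45 committed, 21 cycling and 11 both. The mdx5cv diaphragm gave 34, 24 and 10.

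Adult skeletal muscle is repaired by satellite cells, Pax7-expressing stem cells beneath the basement membrane of the fibre. After activation they divide as Myod1-expressing myoblasts, switch on myogenin (Myog), leave the cell cycle and fuse through the membrane proteins myomaker (Mymk) and myomixer (Mymx) into new fibres, which then build sarcomeres and acetylcholine receptors. In muscles without functional dystrophin, fibres degenerate and regenerate repeatedly.

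The study profiled mononuclear cells of the quadriceps and the diaphragm by droplet 3′-end RNA sequencing in connection with muscle fibrosis. WT and mdx5cv mice aged 14 weeks each gave 1 library a muscle, 4 in all, and all cells were frozen and thawed before capture. The mdx5cv strain carries a mutation of Dmd, the dystrophin gene, in the germ line and so in every cell, and WT mice served as controls. How many animals gave each library is not stated, multinucleated fibres are not among mononuclear cells, and 3′ tags do not check the mutation. With 1 library a group there is no replicate, so no test was made, and every interval below is a 95% interval that covers counting error only. Differences between muscles or between genotypes cannot be told apart from differences between libraries.

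The mdx5cv libraries held 62780685 UMIs for the quadriceps and 49612759 for the diaphragm, and the WT libraries 18837891 and 40226833. No member barcode occurred in both mdx5cv sets. A quadriceps member barcode also occurred among the WT diaphragm barcodes, and a diaphragm member barcode among those of the mdx5cv quadriceps. No doublets were removed. The doublet caller Scrublet marked none of the members, but it marked 0 barcodes in 3 of the 4 libraries, so its threshold did not work there. Of the barcodes with the highest doublet scores, 2 in the quadriceps and 1 in the diaphragm were members.

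The promoters of 4 genes show the letters upstream of the genes that separate the groups: Myog from the committed rule, Top2a from the cycling rule, and Actc1 (cardiac actin, the sarcomeric actin of young muscle) and Ube2c (the ubiquitin-conjugating enzyme of the mitotic exit machinery), which ranked first among the genes higher in committed and in cycling barcodes. Sequences run 5′ to 3′ on the gene's own strand, are from RefSeq on GRCm38.p6 (the build also called mm10), and end where the first GENCODE M21 exon begins, at most 250 bases before the RefSeq start. They lie at chr1:134289754-134289988 on the plus strand (Myog), chr2:114052888-114053125 on the minus strand (Actc1), chr11:99024190-99024439 on the minus strand (Top2a) and chr2:164769679-164769897 on the plus strand (Ube2c). The Actc1 stretch lies in an intron of a longer annotated Actc1 transcript. Capitals mark CANNTG (the E-box letters read by myogenic factors) and the CArG box in Myog and Actc1, and CCAAT and TTTGAA in Top2a and Ube2c, each searched on both strands.
Myog: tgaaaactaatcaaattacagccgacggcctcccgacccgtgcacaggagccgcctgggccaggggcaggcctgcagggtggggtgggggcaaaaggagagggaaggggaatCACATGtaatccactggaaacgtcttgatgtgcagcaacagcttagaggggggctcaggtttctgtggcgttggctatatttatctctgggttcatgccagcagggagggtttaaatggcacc
Actc1: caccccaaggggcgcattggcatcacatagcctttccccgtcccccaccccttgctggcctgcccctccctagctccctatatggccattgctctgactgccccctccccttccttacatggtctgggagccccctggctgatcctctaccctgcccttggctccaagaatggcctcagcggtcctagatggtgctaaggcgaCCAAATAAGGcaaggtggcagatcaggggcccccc
Top2a: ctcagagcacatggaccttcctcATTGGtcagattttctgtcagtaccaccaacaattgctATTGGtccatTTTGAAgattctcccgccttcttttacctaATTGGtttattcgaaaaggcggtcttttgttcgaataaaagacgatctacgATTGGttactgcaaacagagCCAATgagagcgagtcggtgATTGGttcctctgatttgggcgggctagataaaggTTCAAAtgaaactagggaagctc
Ube2c: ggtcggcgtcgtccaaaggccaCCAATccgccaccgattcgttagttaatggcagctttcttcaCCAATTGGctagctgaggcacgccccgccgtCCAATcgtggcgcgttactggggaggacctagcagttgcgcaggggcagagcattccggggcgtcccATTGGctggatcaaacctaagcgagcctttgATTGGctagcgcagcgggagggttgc
The Myog stretch held 1 CANNTG and the Actc1 stretch 1 CArG box. Top2a held 6 CCAAT and 2 TTTGAA. Ube2c held 6 CCAAT, of which a pair overlaps in the palindrome CCAATTGG, where each strand gives 1 match. The 219 bases printed for Ube2c held no TTTGAA, but its full 250 bases, which run past the start of the first exon, did. Among 18297 genes with a RefSeq start within 100 bases of a GENCODE transcript start, the 250 bases upstream held CANNTG in 66.2%, CAGCTG in 13.7%, a CArG box in 1.5%, CCAAT in 38.0% and TTTGAA in 16.5%. Of the 12 genes named below as higher in committed than in cycling barcodes, 8 had such a stretch, with CAGCTG (an E-box) in 4, CANNTG in 5, a CArG box in 2, CCAAT in 5 and TTTGAA in 1. Of the 12 named as higher in cycling barcodes, 9 had one, with CCAAT in 8, TTTGAA in 4 (Ube2c among them), CANNTG in 6 and CAGCTG in 0. These counts are over the full 250 bases and not the printed stretches. CANNTG and the CArG box were added to the search after the sequences had been seen. A match is a run of letters and not a shown binding site, and a missing match says only that these letters are not in the window.

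The 3 groups together made up 24.1% and 26.5% of the myogenic barcodes of the mdx5cv quadriceps and diaphragm, and 3 and 2 barcodes in the WT muscles. Committed barcodes were 14.1% (10.4 to 18.4) of 320 myogenic barcodes in the mdx5cv quadriceps and 13.2% (9.34 to 18) of 257 in the mdx5cv diaphragm. In the WT quadriceps they were 2 of 476, or 0.420% (0.0509 to 1.51), and in the WT diaphragm 1 of 141, or 0.709% (0.0180 to 3.89). Cycling barcodes were 6.56% (4.11 to 9.86) and 9.34% (6.08 to 13.6) in the mdx5cv quadriceps and diaphragm, against 0.210% (0.00532 to 1.16) and 0.709% (0.0180 to 3.89) in the WT muscles, 1 barcode each. Barcodes of both rules were 3.44% (1.73 to 6.07) and 3.89% (1.88 to 7.04), and 0 in the WT muscles, with exact upper bounds of 0.772% and 2.58%, while the limit of 3 counts of the total is 0.63% and 2.13%. The intervals of the 2 mdx5cv muscles overlapped for every group. The intervals are exact Clopper-Pearson intervals over myogenic barcodes, which were themselves 3.84% and 3.47% of the filtered mdx5cv barcodes and 9.69% and 1.88% of the WT ones.

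Depth moves with genotype in these shares. The median myogenic barcode held 6037 UMIs in the mdx5cv quadriceps and 5872 in the mdx5cv diaphragm, against 2042 and 2359 in the WT quadriceps and diaphragm. With each barcode thinned to 2000 UMIs, committed barcodes were 11.5% (7.76 to 16.2) and 13.1% (8.39 to 19.2) in the mdx5cv muscles, against 0.851% (0.103 to 3.04) in the WT quadriceps and 0 of 79 in the WT diaphragm, with an exact upper bound of 4.56% and a limit of 3.8% at 3 counts of the total. The mdx5cv and WT intervals for committed barcodes did not overlap at equal depth. They cover the counting error of single libraries, so a difference between genotypes cannot be told apart from one between libraries. Cycling barcodes were 2.05% (0.669 to 4.72) and 1.79% (0.370 to 5.13) in the mdx5cv muscles after thinning, against 0.426% (0.0108 to 2.35) and 1.27% (0.0320 to 6.85), and these intervals did overlap. The thinned mdx5cv libraries held 5 and 3 cycling barcodes, against 21 and 24 with all UMIs, so this overlap does not show equal shares. With a minimum of 2000 UMIs and no thinning, cycling shares were 6.86% and 9.64% in the mdx5cv muscles. In the WT muscles they were 0.402% and 1.05%. Thinning left out 14 and 8 shallow mdx5cv and 227 and 46 shallow WT barcodes. With mitochondrial UMIs limited to 5%, 1 committed barcode of 37 myogenic ones remained in the mdx5cv quadriceps, or 2.70%. The median committed barcode of that library held 9.23% mitochondrial UMIs.

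**Figure D1:**
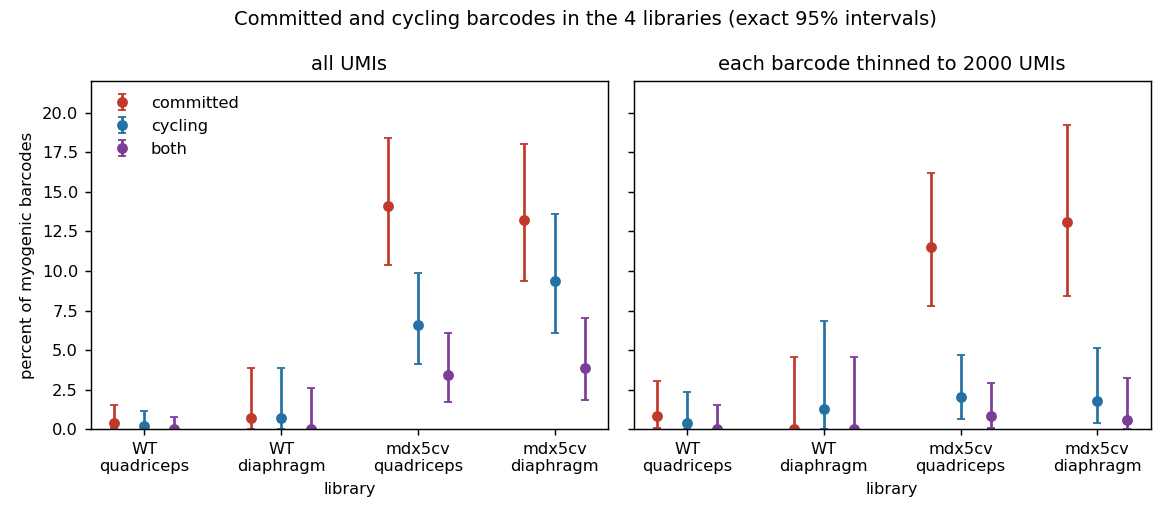
Percent of myogenic barcodes (y axis) that were committed, cycling or both in each of the 4 libraries (x axis), with all UMIs on the left and with each barcode thinned to 2000 UMIs on the right. Points are shares and bars exact 95% intervals. Committed shares in the mdx5cv muscles, 14.1% and 13.2% with all UMIs, stand above the WT shares in both panels. Cycling intervals of mdx5cv and WT libraries overlap after thinning, where the mdx5cv libraries held only 5 and 3 cycling barcodes.

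The 5 WT barcodes that met a rule are shown by their counts. In the WT diaphragm 1 committed barcode with 8108 UMIs held 36 UMIs of Myog, 7 of Mymk, 39 of Actc1, 25 of Acta1 and 150 of Cdkn1c. The 2 committed barcodes of the WT quadriceps held 4 UMIs of Myog each and none of Mymk, Mymx or Actc1. A cycling barcode of the WT quadriceps held 9 UMIs of Top2a, 3 of Mki67 and 7 of Birc5, and that of the WT diaphragm met the rule with 2 UMIs of Mki67 alone. They were not used in any comparison of levels.

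Most members lay well inside the rule. Committed barcodes held a median of 27.0 UMIs of the 3 commitment genes in the quadriceps and 24.5 in the diaphragm, and at most 166 and 110 in any member. Cycling barcodes held a median of 18 and 7.50 UMIs of the 3 cycling genes. In barcodes of both rules the cycling sum had medians of 17 and 12.5, and the commitment sum medians of 2 and 6. The rule sets limits on both sums in every group, so these counts describe the barcodes and do not place them in either group. At the edge, 11 and 4 members held exactly 1 commitment UMI, 2 and 4 held exactly 2 cycling UMIs, and 12 and 2 myogenic barcodes outside the cycling rule held exactly 1. The limit on other lineages left out 6 and 3 otherwise fitting barcodes at a sum of 2 UMIs and 45 and 11 at 3 or more, and 16 and 5 members held 1 such UMI.

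**Figure D2:**
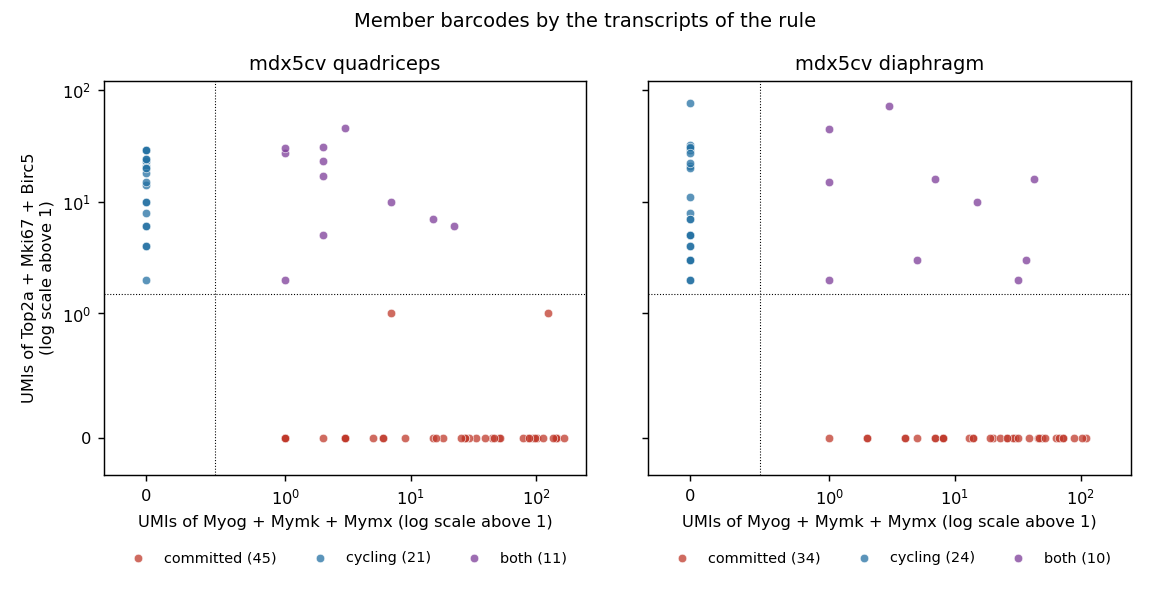
Each member barcode by its UMIs of Myog, Mymk and Mymx (x axis) and of Top2a, Mki67 and Birc5 (y axis), both logarithmic above 1, in the mdx5cv quadriceps (left) and diaphragm (right), with dotted lines at the thresholds. The 11 and 10 barcodes of both rules have median commitment sums of 2 and 6, against 27.0 and 24.5 in committed barcodes.

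The genes of the rule are given first; since the gate used them, these counts describe the members and do not check the label. Myog, the transcription factor of terminal differentiation (chr1:134289989-134292548, plus strand), had a UMI in 39 of 45 committed quadriceps barcodes and 33 of 34 committed diaphragm barcodes. Among 4037 and 2241 immune barcodes, which should lack it, 0.892% and 0.357% had one at median depths of 6330 and 6034 UMIs, against depths of 11292 and 8051 in committed barcodes. Mymk (chr2:27061636-27072179, minus strand) had a UMI in 27 and 21 committed barcodes, and Mymx (chr17:45600971-45602102, minus strand) in 30 and 11. Of the muscle stem and myoblast factors Pax7, Myod1 and Myf5, at least 1 UMI was present in 43 of 45 committed, 19 of 21 cycling and 10 of 11 barcodes of both rules in the quadriceps, and in 33 of 34, 23 of 24 and 10 of 10 in the diaphragm. The remaining members met the lineage rule without them. Such a UMI was present in 177 of 243 and 170 of 189 mdx5cv myogenic barcodes of neither rule. In the WT quadriceps and diaphragm it was present in 333 of 473 and 96 of 139. The rest of these passed as myogenic on Cdh15, Des and Chodl alone. Outside the rule, Chrna1, the muscle acetylcholine receptor subunit described below, had a UMI in 45 of 45 and 33 of 34 committed barcodes. It also had one in 21 of 21 and 15 of 24 cycling barcodes and in 11 of 11 and 9 of 10 barcodes of both rules. Of the myogenic barcodes of neither rule, 89 of 243 and 71 of 189 had one. Detection of Chrna1 thus did not separate committed from cycling barcodes in the quadriceps.

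FAP and macrophage markers were high in a few members, and mural markers were higher in committed than in cycling barcodes, with Acta2 giving most of their UMIs. Markers of fibro/adipogenic progenitors (FAPs, the matrix-producing stromal cells of muscle) summed to a median of 6.23 per 10000 UMIs in committed quadriceps barcodes (0 to 189.6) and 3.65 in committed diaphragm barcodes (0 to 36.2), with 3 and 0 barcodes above 50. In cycling barcodes the medians were 5.28 (0.485 to 66.1) and 8.50 (1.94 to 497), with 1 and 2 above 50. Free RNA from near-empty droplets held 131 and 229.8 per 10000. In committed quadriceps barcodes all 10 FAP markers were detected, and in committed diaphragm barcodes 7 of 10, with Pdgfra, Pi16 and Clec3b at 0. Macrophage markers had medians of 3.68 (0 to 309.9) and 1.17 (0 to 12.5) in committed and of 5.75 (0.879 to 37.7) and 1.89 (0 to 33.0) in cycling barcodes, with 11 and 10 of the 12 markers detected in committed and all 12 in cycling barcodes. Mural markers (of pericytes and smooth muscle) had medians of 25.1 (0 to 173) and 30 (0 to 90.9) in committed barcodes, with 7 and 10 above 50, against 2.40 and 1.73 in cycling barcodes and 2.38 and 4.81 in free RNA. Besides Acta2 (smooth muscle actin), committed quadriceps barcodes held Rgs5 (82.7 CPM, 95.9% of it from 1 barcode), Myh11 (21.9 CPM, from 1 barcode), Abcc9 (15.2 CPM) and Cspg4 (1.69 CPM), with Kcnj8 at 0. Committed diaphragm barcodes held, besides Acta2, only Abcc9, at 7.17 CPM from 2 barcodes, with Rgs5, Kcnj8, Myh11 and Cspg4 at 0. Endothelial, lymphoid and erythroid markers had medians of 0 in every member group. The uncommitted myogenic barcodes used for comparison, 243 and 189 with neither rule met, held more FAP markers, with medians of 28.2 and 20.1 and 72 and 28 barcodes above 50. Their quadriceps set also held 54 barcodes above 50 per 10000 in tenocyte markers. Values with the barcodes high in FAP or macrophage markers left out are given beside the results on the lists these genes belong to. That filter also left out barcodes without a UMI of Pax7, Myod1 or Myf5, and its parts were not tested apart. It was chosen after seeing the data. It kept 38 committed, 18 cycling and 162 uncommitted quadriceps barcodes and 33, 21 and 151 in the diaphragm.

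Levels below are CPM, the UMIs of a gene summed over the barcodes of a group, divided by the group's total and scaled to 1e6. The summed groups held a median depth per barcode of 11292 UMIs (2143 to 33740) for committed, 20618 (8930 to 37759) for cycling and 4966 (1147 to 30609) for uncommitted barcodes in the quadriceps. In the diaphragm these were 8051 (2139 to 17280), 14112 (2120 to 43494) and 4832 (1520 to 24408). Cycling barcodes were thus the deepest and uncommitted barcodes the shallowest in both libraries.

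The genes of the rule are given as description, since they chose the cells. Myog reached 2683 CPM in committed quadriceps barcodes and 3268 in committed diaphragm barcodes, with per-barcode medians of 18.5 and 25.9 per 10000 UMIs and highest values of 80.8 and 71.8. Barcodes of both rules held 194 and 565 CPM of Myog. Myod1, the factor of the proliferating and early differentiating myoblast, was at 1186 and 953 CPM in committed, 517 and 845 in both, 271 and 437 in cycling and 108 and 242 in uncommitted barcodes, an order from committed down to uncommitted that held in both libraries. Pax7, the stem cell factor, ran the other way, at 274 and 229.9 CPM in uncommitted, 82.3 and 63.9 in cycling and 38.8 and 28.7 in committed barcodes. Myf5, its partner in the early lineage, was at 284 and 274, then 96.9 and 66.5, then 32.1 and 28.7 CPM. Chodl, a gene enriched in quiescent satellite cells, was at 905 and 645 CPM in uncommitted barcodes and at most 43.9 in any committed or cycling group.

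**Figure D3:**
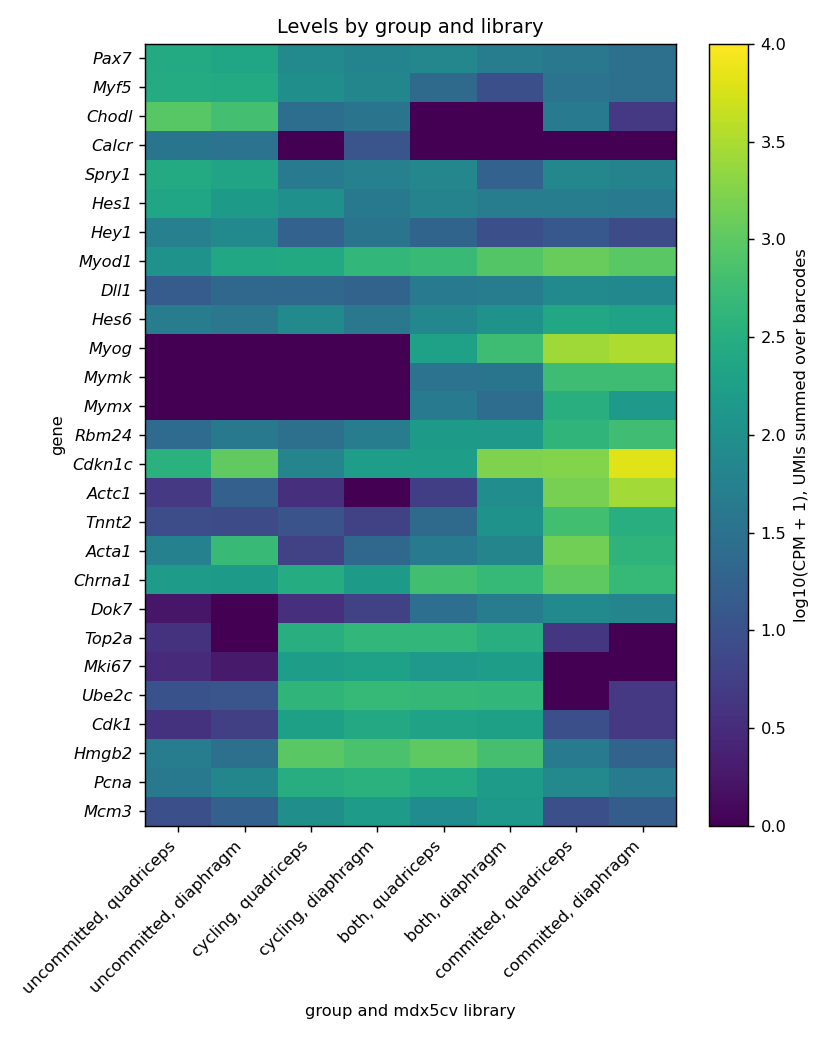
Levels of 27 genes (rows) in uncommitted, cycling, both-rule and committed barcodes of each mdx5cv library (columns), coloured by log10(CPM + 1). Pax7, Myf5 and Chodl are highest in uncommitted barcodes, Top2a and Ube2c in cycling and both-rule barcodes, and Myog, Actc1 and Cdkn1c in committed barcodes.

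Committed and cycling myoblasts were then set side by side. A gene was called when it differed at least 2-fold in the same direction in both libraries, with at least 10 UMIs over the 2 groups in each. Of 6522 genes compared, 354 (5.43%) were higher and 423 (6.49%) were lower in committed than in cycling barcodes. Because the rule itself contrasts these groups, the lists below describe what goes with it. The 12 highest-ranked genes on the committed side included the sarcomere genes Actc1, Tnnt2 and Acta1, the calcium pump gene Atp2a1 and the cell cycle inhibitor Cdkn1c. Of the 12 on the cycling side, all but Pclaf, a PCNA-associated replication factor, and Cdca8, a chromosomal passenger protein, were members of the mitosis list.

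Actc1 was at 1507 CPM in committed and 2.42 in cycling quadriceps barcodes, a 622-fold difference (111 to 24602) that rests on 1 UMI on the cycling side. In the diaphragm it was at 2816 CPM against 0, at least 367-fold higher when 3 UMIs are set for the 0. Its per-barcode levels were uneven, with a UMI in 21 of 45 and 23 of 34 committed barcodes, medians of 0 and 14.5 per 10000 and highest values of 122 and 109. Tnnt2, the cardiac and embryonic troponin T, was 64.4-fold higher in the quadriceps (25 to 238) and 63.8-fold in the diaphragm (17.1 to 534). Acta1, the adult skeletal actin, was at 1389 and 405 CPM in committed barcodes and 4.84 and 20.5 in cycling ones. Of 24 early sarcomere genes only 8 had enough UMIs to compare, and 6 were higher in committed barcodes in both libraries, namely Actc1, Tnnt2, Tnnt1, Tpm2, Ttn and Neb. The list's median log2 ratio was 4.14 and 2.90, against -0.06 and -0.10 over all genes compared. Ttn, the giant spring protein of the sarcomere, was at 1363 and 788 CPM against 247 and 166.

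Transcripts of the motor endplate were also higher in committed barcodes. Of 10 acetylcholine receptor and endplate genes 6 were compared, and Chrna1, Chrnb1, Chrng and Dok7 were higher in committed than in cycling barcodes in both libraries, with a list median of 1.48 in each. Chrna1, the ligand-binding receptor subunit, was at 1009 and 480.1 CPM in committed and 300.3 and 148 in cycling barcodes. It had a UMI in all but 1 of the committed barcodes and in 21 of 21 and 15 of 24 cycling ones. Chrng, the subunit of the embryonic receptor, was at 125 and 50.2 against 21.8 and 12.8 CPM. Dok7, the adaptor that activates the receptor-clustering kinase MuSK, was at 77.6 and 64.5 against 2.42 and 5.11 CPM. Among 14 compared myogenic regulators 4 were higher, Mef2a, Hes6, Rbm24 and Klhl41, and none was lower in both libraries. Rbm24, a muscle RNA-binding protein that directs splicing, was at 407 and 602 CPM against 29.1 and 46.0, 14.0-fold (7.86 to 27.5) and 13.1-fold (8.03 to 22.6).

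Cell cycle exit genes went both ways. Cdkn1c, the imprinted inhibitor p57 (chr7:143458339-143461050, minus strand), was at 1792 CPM in committed and 65.4 in cycling quadriceps barcodes, 27.4-fold (18.7 to 41.8), and at 6295 and 166 CPM in the diaphragm, 37.9-fold (29.6 to 49.3). It had a UMI in 35 of 45 and 31 of 34 committed barcodes, with per-barcode medians of 8.73 and 57.6 per 10000. Uncommitted barcodes held 354 and 1061 CPM, between the 2 member groups. Cdkn1a, the inhibitor p21, was at 570.3 and 133 CPM in committed against 232 and 86.9 in cycling barcodes, below 2-fold in the diaphragm. Rb1, the retinoblastoma protein gene, Gadd45a and Btg2 were also higher in committed barcodes in both libraries. Cdkn2c (the inhibitor p18), Cdkn2a (p16 and ARF) and Rbl1 (the retinoblastoma relative p107) were lower, with Cdkn2c at 1.69 and 7.17 CPM in committed and 72.6 and 63.9 in cycling barcodes. Of 18 compared genes of this list 4 were thus higher and 3 lower.

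The cycling side held the mitosis and DNA replication genes. Of 29 compared mitosis genes 29 were lower in committed than in cycling barcodes in both libraries, with medians of -4.43 and -3.33, and of 24 DNA replication genes 21, with medians of -2.39 and -2.67. Ube2c (chr2:164769898-164778822, plus strand) was at 414 and 478 CPM in cycling barcodes, against 0 and 3.58 in committed ones. It had a UMI in 19 of 21 and 14 of 24 cycling barcodes, 0 of 45 and 1 of 34 committed barcodes. Hmgb2, a chromatin protein of dividing cells, was at 954 and 698 CPM against 43.9 and 17.9, and Pclaf at 409 and 463 against 18.6 and 7.17. By summed UMIs, 14 of 21 cycling quadriceps barcodes held more mitosis than replication transcripts and 7 the reverse, against 13 and 10 of 24 in the diaphragm with 1 equal. Barcodes of both rules were at 462 and 452 CPM of Ube2c, close to the cycling barcodes, and at 4.62 and 90.5 CPM of Actc1.

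**Figure D4:**
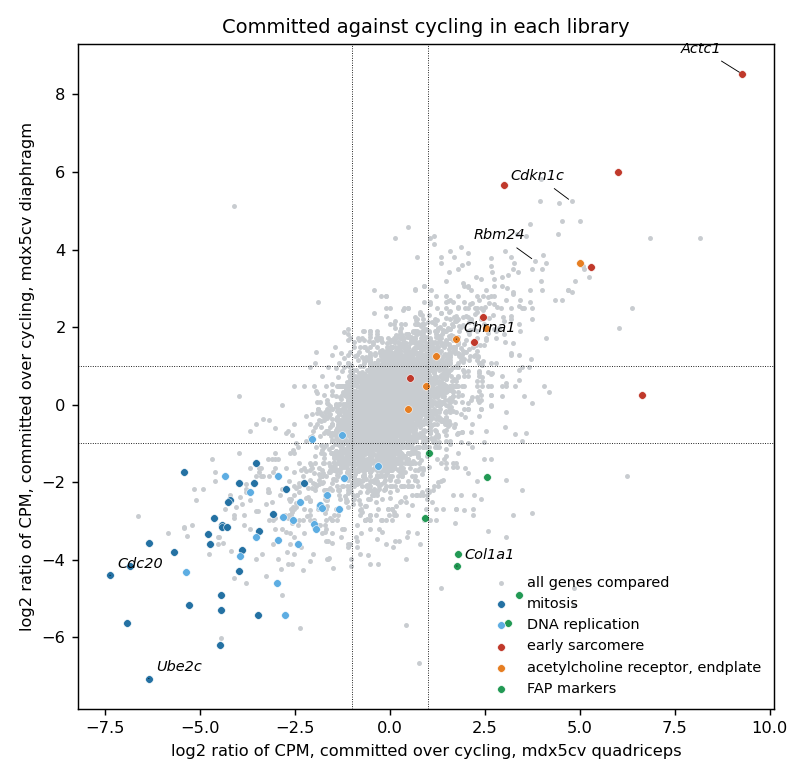
Log2 ratio of CPM, committed over cycling, in the quadriceps (x axis) and the diaphragm (y axis), 1 point a gene without the genes of the rule, with dotted lines at 2-fold. Mitosis and replication genes lie in the lower left, early sarcomere and endplate genes in the upper right, and FAP markers have medians of 1.80 in the quadriceps and -3.84 in the diaphragm.

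FAP markers, macrophage markers and matrix genes did not keep 1 direction between the libraries. The FAP list had medians of 1.80 in the quadriceps and -3.84 in the diaphragm for committed over cycling barcodes, where single barcodes carried much of the signal. A single committed quadriceps barcode held 65.9% of that group's Col1a1 UMIs, and a single cycling diaphragm barcode 62.8% of its group's. With the barcodes high in FAP or macrophage markers left out, the medians were 0.00 and -0.02 over the 4 markers that could still be compared, of 7 before. Matrix genes had medians of 0.58 and -1.96 before and -0.11 and -0.33 after that filter, and macrophage markers 2.08 and -0.40 before and 0.36 and -0.04 after. The filter acts on members of the FAP and macrophage lists and on Pax7, Myod1 and Myf5. The matrix list shares Col1a1, Col3a1 and Dcn with the FAP list. The smaller medians thus follow in part from the filter itself. Spp1, a secreted matrix phosphoprotein that also belongs to the macrophage list, was lower in committed barcodes in both libraries, at 289 and 14.3 CPM against 816 and 263 in cycling barcodes. With the filter Spp1 was 3.20-fold and 19.2-fold lower.

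Against uncommitted myogenic barcodes, committed barcodes were higher in early sarcomere genes and lower in many stem cell, Notch, immediate-early and matrix genes. Of 8896 genes compared, 309 (3.47%) were higher and 804 (9.04%) lower in committed barcodes in both libraries. Dok7, Lmnb2 (lamin B2), Fndc5 (the precursor of irisin), Mycl and Casz1 were among the 12 highest-ranked, with Lmnb2 at 278 and 326 CPM against 11.5 and 14.0. Of 12 compared early sarcomere genes 7 were higher and 0 lower, with medians of 3.48 and 1.49. Of 13 compared adult fibre genes only Atp2a1 was higher in both libraries, and the medians were 1.41 in the quadriceps and -2.28 in the diaphragm. Of the stem cell list 12 of 19 compared genes were lower and 0 higher, with medians of -1.78 and -1.84 against -0.16 and -0.10 over all genes compared. The lists overlap, so their counts are not separate results. Among the lower stem cell genes, Notch3, Hes1, Hey1 and Heyl are also in the Notch list, Fos in the immediate-early list and Apoe in the macrophage list. Spry1, an inhibitor of growth factor signalling in quiescent satellite cells, was at 70.9 and 60.9 CPM against 276 and 218. Calcr, the calcitonin receptor of quiescent satellite cells, was at 0 in both committed groups against 34.5 and 32.7 CPM. Of 14 Notch genes 5 were lower, the receptor Notch3, the ligand Jag1 and the target genes Hes1, Hey1 and Heyl, and 2 were higher, Dll1 and Hes6. Dll1, the ligand that signals to neighbouring cells, was at 79.3 and 71.7 CPM in committed, 21.8 and 17.9 in cycling and 13.6 and 20.6 in uncommitted barcodes, and Notch3 at 72.5 and 25.1, 87.2 and 58.8, and 428 and 299 CPM. Heyl was at 40.5 and 35.8 CPM in committed, 79.9 and 105 in cycling and 265 and 193 in uncommitted barcodes. Dll1 was thus highest in committed barcodes, and Notch3 and Heyl in uncommitted ones, as was the ligand Jag1, at 11.8 and 3.58, 17 and 33.2, and 81.1 and 56.1 CPM.

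Immediate-early and heat shock genes, which also respond to tissue dissociation, were lower in committed barcodes for 13 of 18 genes and higher for 0, with medians of -1.50 and -1.55. Matrix genes were lower for 18 of 22, with medians of -2.83 and -2.58. The filter on FAP and macrophage markers, which also left out barcodes without Pax7, Myod1 and Myf5, gave medians of -1.92 and -1.63 for the immediate-early list. They were -1.83 and -1.90 for matrix genes and -2.29 and -1.81 for the stem cell list. Dmd itself was at 8.44 and 17.9 CPM in committed, 9.69 and 12.8 in cycling and 60.3 and 56.1 in uncommitted barcodes, in both libraries at least 2-fold lower in each member group. The member levels of Dmd rest on few UMIs. The committed groups summed to only 592705 and 279101 UMIs over all genes, and the cycling groups to 412964 and 391078.

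Cycling barcodes were higher than uncommitted ones in division genes and lower in stem cell, immediate-early and growth factor genes. Of 9129 genes compared, 598 (6.55%) were higher and 926 (10.1%) lower in cycling barcodes in both libraries. All 29 mitosis and all 25 replication genes compared were higher, with medians of 4.90 and 5.54, and of 2.95 and 2.84, against -0.15 and -0.11 over all genes. Of 19 stem cell genes 12 were lower, with medians of -2.01 and -1.41, and of 18 immediate-early genes 16, with medians of -2.39 and -2.25. Fos counts in both of these lists. The 2 sets of ratios share the uncommitted barcodes, so their likeness is no separate result. Of 12 genes of the insulin-like growth factor axis 7 were lower in cycling barcodes, against 2 of 12 in committed ones. Igf2, the fetal growth factor, was at 31.5 and 192 CPM in cycling, 202 and 340.4 in committed and 295 and 566 in uncommitted barcodes. Ccnd1, cyclin D1 of the first gap phase, was at 358 and 345 CPM in cycling, 245 and 168 in committed and 80.4 and 145 in uncommitted barcodes.

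**Figure D5:**
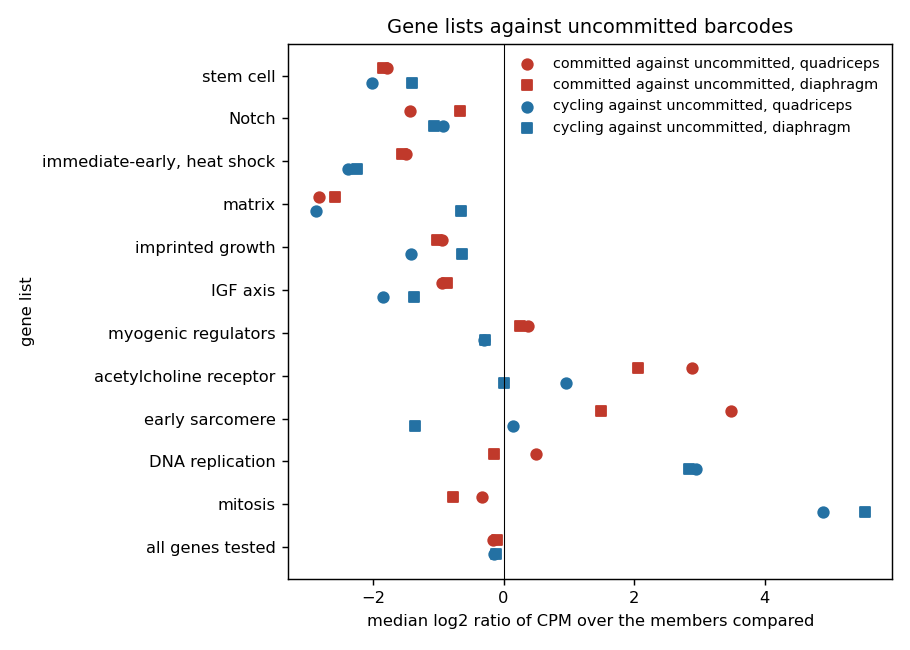
Median log2 ratio of CPM against uncommitted barcodes (x axis) for 11 gene lists and all genes compared (y axis), committed in red and cycling in blue, circles for the quadriceps and squares for the diaphragm. Stem cell and immediate-early lists lie at -1.41 or lower in both groups, early sarcomere genes at 3.48 and 1.49 in committed barcodes, and mitosis genes at 4.90 and 5.54 in cycling barcodes.

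Acta1 and Mylpf in the uncommitted groups came mostly from single barcodes. Of the Acta1 UMIs of uncommitted barcodes 91.1% and 96.8% lay in 1 barcode of each library, and of Mylpf, the fast regulatory light chain, 97.3% and 97.5%. In committed quadriceps barcodes the largest share of any 1 barcode was 15.2% for Acta1 and 30.5% for Mylpf. Myh3, the embryonic myosin heavy chain, was at 199 CPM in committed quadriceps barcodes, from 12 of 45 barcodes, and at 7.17 CPM in the diaphragm, where 1 of 34 committed barcodes held all of it. Myl4, the embryonic light chain, was at 216 and 25.1 CPM in committed and at most 2.56 in cycling barcodes.

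Committed barcodes varied among themselves by the fusion genes. In the quadriceps 9 held Myog without Mymk or Mymx, 30 held Myog with one of them, 6 held Mymk or Mymx without Myog, and 21 held all 3. In the diaphragm the numbers were 12, 21, 1 and 10. Actc1 had a UMI in 0 of 9 quadriceps barcodes without a fusion gene and 21 of 36 with one, and in 3 of 12 and 20 of 22 diaphragm barcodes, at 161 CPM without and 3781 with. Acta1 was at 0 CPM without a fusion gene in both libraries and at 1555 and 552 with one. Cdkn1c was at 772 and 3146 CPM without and 1914 and 7440 with a fusion gene, and Tnnt2 at 173 and 13.4 against 678 and 439.6. Pax7 was higher without a fusion gene, at 142 and 80.7 CPM against 26.5 and 9.77. Chrna1 was close to level, at 804 and 484 CPM without and 1034 and 479 with. The split uses genes of the rule, and Myog itself was at 457 and 1304 CPM without and 2949 and 3981 with a fusion gene. Barcodes without a fusion gene thus also met the committed rule with less Myog. Barcodes with a fusion gene were deeper, with medians of 12580 and 9175 UMIs against 6368 and 5922. The parts of depth and of Myog level in these differences were not tested.

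The genes most like Myog over the myogenic barcodes of each library, by Pearson correlation of log2(1 + UMIs per 10000), were Actc1, Rbm24, Lmnb2, Tnnt2, Cdk5r1, Dok7, Acta2, Arpp21, Atp2a1 and Fndc5. Correlations were 0.75 and 0.82 for Actc1 and 0.75 and 0.77 for Rbm24, over 320 quadriceps and 257 diaphragm barcodes. For Tnnt2 they were 0.83 and 0.66, and for Fndc5, the last of the 10, 0.74 and 0.60. The barcodes of a library share its free RNA, and they differ in depth, so these values are a description. Acta2 was at 2954 and 3794 CPM in committed, 286 and 355 in cycling and 668 and 565 in uncommitted barcodes, and the other mural markers are given above.

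Quadriceps and diaphragm myoblasts differed in a small set of genes that held in both states. Of 6581 genes compared, 196 (2.98%) were at least 2-fold higher and 43 (0.653%) lower in the quadriceps in committed as well as in cycling barcodes. Meis2, a homeobox gene (chr2:115863064-116065839, minus strand), was at 3.37 CPM in committed quadriceps and 118 in committed diaphragm barcodes, 35-fold lower (8.96 to 301). In cycling barcodes it was at 4.84 and 71.6 CPM, 14.8-fold lower (3.73 to 128). It had a UMI in 2 of 45 committed and 1 of 21 cycling quadriceps barcodes, and in 17 of 34 and 13 of 24 diaphragm barcodes. Pax3, the embryonic relative of Pax7, was likewise lower in the quadriceps, at 3.37 and 2.42 CPM against 39.4 and 25.6. Cdkn1c was 3.51-fold lower (3.25 to 3.80) in committed and 2.54-fold lower (1.60 to 4.14) in cycling quadriceps barcodes.

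Higher in the quadriceps were S100a4, Cdkn2a, Cdkn1a, Igfbp5 and Tpm1. S100a4, a calcium-binding protein of motile cells, was at 1826 and 269 CPM in committed quadriceps and diaphragm barcodes, 6.79-fold (5.37 to 8.70), and at 1889 and 708 CPM in cycling ones, 2.67-fold (2.32 to 3.07). Cdkn2a was at 84.4 and 14.3 CPM in committed and 199 and 33.2 in cycling barcodes, 5.89-fold (2.16 to 22.4) and 5.97-fold (3.31 to 11.7). Cdkn1a was 4.30-fold (3.06 to 6.22) and 2.67-fold (1.79 to 4.08) higher, so of the 3 kinase inhibitors that differed between muscles Cdkn1c alone was lower in the quadriceps. Of the immediate-early list 3 of 16 compared genes were lower in the quadriceps, Fos, Egr1 and Dnajb1, and none was higher. Uncommitted barcodes showed the same order for Meis2 at 10.1 and 185 CPM, S100a4 at 943 and 425, Cdkn2a at 75.4 and 25.2 and Cdkn1c at 354 and 1061. The order between libraries was thus also present outside the member groups. The part of free RNA, which barcodes of a library share, in these differences was not tested. Of the named genes, Golga3 drew 59.3% of its committed and 62.5% of its cycling quadriceps UMIs from 1 barcode each, and Phlda1 67.0% of its committed diaphragm UMIs from 1 barcode.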

How the data were processed

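The authors deposited unfiltered matrices of raw UMI counts over 32285 genes, per the file headers. Cell Ranger 5.0.0 and mm10 are named in the submitters' processing notes, Cell Ranger 4 in the matrix header. The sources used here name no gene annotation behind the counts. Cells were cryopreserved and captured with a droplet 3′ kit, per the labels' protocols.

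Counts were analysed in Python 3.11.15 with numpy 2.4.6, pandas 2.3.3, scipy 1.17.1, scanpy 1.11.5, anndata 0.12.19 and matplotlib 3.10.9. The members and gene lists were chosen with earlier results of these data known. UMIs were summed per library and group and given as CPM. Ratios carry exact conditional 95% intervals, and a sum of 0 was set to 3 UMIs. A ratio with such a sum depends on that setting and is not a 95% bound. A call needed 2-fold in both parallel comparisons and 10 UMIs over both sides in each. The genes named needed 50 CPM on the higher side and both intervals excluding 1, and were ranked by the smaller bound: 12 each way for committed against cycling, 12 up and 8 down against uncommitted barcodes and 10 each way between muscles, without rule genes, mitochondrial, ribosomal, predicted or other-cell marker genes. Members of the 26 gene lists were named through their list. Other genes given, the WT barcodes shown, the split by fusion genes and the shares of single barcodes were picked after their values were seen. Immune barcodes had 2 or more UMIs of Ptprc and none of the lineage genes. Free RNA is the profile of barcodes with 10 to 100 UMIs. The sums and intervals were tested on simulated data. Positions are from GENCODE M21 (GRCm38). Promoters were read from a RefSeq table of 27025 symbols, of which 18297 had a start within 100 bases of a GENCODE start. Settings of the gates, depth, filters and thresholds were varied one at a time; the filter on FAP and macrophage markers (at most 50 and 20 UMIs per 10000, with at least 1 UMI of Pax7, Myod1 or Myf5) and the removal of the 6% of barcodes with the highest doublet scores were added after seeing the data.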

Additional observations from a re-analysis of the deposited data

Results flagged for a closer look

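In 10 cases the median log2 ratio of a gene list pointed in opposite directions, by 0.3 or more each way, in the 2 libraries or the 2 groups compared. The differences themselves were not tested, since each group is 1 library.

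For committed over cycling barcodes, in the quadriceps and the diaphragm, the medians were 0.96 and -0.85 for interferon and MHC genes, 0.58 and -1.96 for matrix genes, 1.80 and -3.84 for FAP markers, and 2.08 and -0.40 for macrophage markers. For committed over uncommitted barcodes they were 1.41 and -2.28 for adult fibre genes and 0.77 and -1.04 for macrophage markers. For quadriceps over diaphragm, in committed and in cycling barcodes, they were 0.37 and -0.30 for DNA replication genes, 1.24 and -0.66 for interferon and MHC genes, 0.94 and -0.95 for matrix genes, and 2.82 and -2.82 for FAP markers. In both the committed-over-cycling and the muscle comparison, FAP markers were high in few barcodes, 3 of 45 committed and 1 of 21 cycling quadriceps barcodes and 0 of 34 and 2 of 24 diaphragm barcodes lying above 50 per 10000 UMIs. With the barcodes high in FAP or macrophage markers left out, the committed-over-cycling medians were 1.13 and -0.86 for interferon and MHC genes, -0.11 and -0.33 for matrix genes, 0.00 and -0.02 for FAP markers and 0.36 and -0.04 for macrophage markers. Over uncommitted barcodes they were 3.21 and 1.04 for adult fibre genes and -0.17 and -0.14 for macrophage markers. Between muscles they were 0.18 and -0.41 for DNA replication genes, 0.96 and -0.65 for interferon and MHC genes, 0.76 and -0.24 for matrix genes and 0.40 and 0.15 for FAP markers. The opposite directions of the FAP, macrophage, matrix and adult fibre medians were thus absent or under 0.3 on 1 side after this filter, which was chosen after seeing the data. The filter leaves barcodes out by members of the FAP and macrophage lists, and also those without a UMI of Pax7, Myod1 or Myf5. The matrix list shares Col1a1, Col3a1 and Dcn with the FAP list. The change of the FAP, macrophage and matrix medians therefore follows in part from the filter itself.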

How the results depend on the processing

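Of 176 recomputed shares and counts of genes, 130 stayed within the range set for them and 46 moved. With mitochondrial UMIs limited to 5%, the committed share of the mdx5cv quadriceps was 2.70% and 3 WT shares (cycling in both muscles, committed in the diaphragm) were 0; genes higher and lower numbered 15 and 23 for committed against cycling, 89 and 33 for committed and 273 and 288 for cycling against uncommitted, and 8 and 2 between muscles. Thinning to 2000 UMIs gave cycling shares of 2.05% and 1.79%. The WT diaphragm share was 0 for committed barcodes after thinning or without the highest doublet scores, and 0 for cycling barcodes at 4 UMIs or with the filter on FAP and macrophage markers. In the same order, thinning to 3000 UMIs gave 135 and 125, 449 lower, 325 and 325, and 37 and 14; a minimum of 30 UMIs gave 150 and 156, 187 and 497, 386 and 525, and 40 and 11; a 3-fold limit gave 164 and 224, 117 and 337, 259 and 329, and 42 and 8. Counting barcodes of both rules with both groups gave 227 and 212, 469 higher against uncommitted, and 296 and 74 between muscles. The fewer genes compared or the stricter limit lower most of these counts by construction; otherwise the cause was not tested.

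Of 2884 single values 2572 stayed within the range set for them, 297 moved and 15 reversed. The 15 reversed values follow. Against uncommitted barcodes, the committed quadriceps macrophage median was -0.49 at an exclusion sum of 0 and -0.31 without the highest doublet scores, and the committed mitosis median was 0.40 in the diaphragm with cycling at 4 UMIs and 3.52 and 4.28 with barcodes of both rules included. At 3000 UMIs the cycling endplate median in the quadriceps was -0.93. The replication median of committed barcodes between muscles was -0.42 at 3000 UMIs, -0.53 with both-rule barcodes and -0.31 as a mean over barcodes. With the FAP and macrophage filter, log2 ratios against uncommitted barcodes were 1.97 for Cilp (committed, quadriceps), 1.11 and 0.61 for Mylpf (cycling, both libraries) and 0.84 for Myl1 (cycling, diaphragm), and the list medians 1.04 for adult fibre genes (committed, diaphragm) and 0.40 for early sarcomere genes (cycling, diaphragm). No paired analysis was possible because each group is 1 library. Groups of 21 to 45 barcodes limit what can be compared: genes under 10 UMIs had no ratio.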

Other observations

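Further lists moved in 1 or both member groups. Over all genes compared, 9.04% were lower and 3.47% higher in committed than in uncommitted barcodes in both libraries. Of 20 genes of the dystrophin complex, 4 of 16 compared were lower in this comparison (Dmd, Sgce, Sntb2 and Lama2). Sntb1 was higher, at 94.5 and 64.5 CPM against 16.5 and 22.4, and this 1 gene is no result about the list. In cycling barcodes Sntb1 was lower, at 7.26 and 2.56 CPM, levels that rest on few UMIs. In committed barcodes imprinted growth genes were lower for 6 of 13 (Meg3, Rian, Peg3, Peg10, Plagl1 and Sgce), and Cdkn1c was the 1 higher gene of that list, whereas it was lower in cycling barcodes. H19, an imprinted noncoding RNA, was at 513 and 226 CPM in committed and 63.0 and 335 in cycling barcodes, so its order between the groups differed between the libraries. Id3 and Msc, inhibitors of myogenic factors, were lower in both member groups, with Id3 at 280.1 and 254 CPM in committed, 278 and 366 in cycling and 829 and 1248 in uncommitted barcodes. Jam3, a junction protein and the 1 gene of the fusion list higher in committed barcodes, was at 224 and 344 CPM against 53.3 and 79.3 in cycling ones.

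Mitochondrial energy genes had medians within 0.35 of 0 between committed and cycling barcodes in both libraries, and 0 of 10 compared genes were called in either direction. Over all genes compared, 5.43% were called higher and 6.49% lower in committed barcodes, so a count of 0 in 10 genes is near that share.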
